A study of Mus musculus with 12 samples.

Results

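E proteins and their Id inhibitors were described here by the accessible chromatin at their genes in mouse germinal center B cells. The E protein genes Tcf3, Tcf4 and Tcf12 and the inhibitor genes Id1, Id2 and Id3 made up the set of 6 genes. A peak was assigned to a gene when that gene had the protein-coding RefSeq span nearest to the peak's midpoint, within 50 kb. By this rule 99 of 68689 peaks (0.144%) belonged to the set, with 45 at Tcf4, 22 at Tcf12, 18 at Id3, 6 at Tcf3, 4 at Id1 and 4 at Id2. The assay was Omni-ATAC-seq, which uses the transposase Tn5 to cut and tag open DNA. The cells were sorted from spleens of C57BL/6 mice of 8 to 10 weeks with genotype Pbrm1+/+ (labelled WT) or Pbrm1-/- (labelled HOMO). Each genotype gave a population labelled CB and a population labelled CC, abbreviations that the labels do not spell out, with 3 libraries in each of the 4 groups. Pbrm1 encodes a bromodomain subunit of the PBAF chromatin remodelling complex that related BAF complexes lack. The columns of the count table carry the name Pbrm1AID, which the labels do not explain, and the sources used here do not say in which cells, or by which driver, Pbrm1 was deleted. Whether the libraries of a group came from separate mice is not stated either, so that p-values measure the spread between these libraries only.

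E proteins are basic helix-loop-helix transcription factors that bind E-box DNA as dimers. They set up the B lineage and, in germinal centers, act on genes of proliferation and antibody diversification. Id proteins have the helix-loop-helix part but no basic DNA-binding part, so they hold E proteins in dimers that cannot bind an E-box. The balance between both kinds of protein, and not the level of either alone, is known to set E protein activity in lymphocytes. Id3 is the Id protein best known for restraining Tcf3 in mature B cells, and loss of that restraint by mutation is known from Burkitt lymphoma.

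RefSeq promoter windows (GRCm38.p6) were matched for 4 of the 6 genes, with 6 windows in all. The 250 bases before the start are printed for the starts of Id3, Id2, Tcf12 and Tcf3, because these windows lie wholly or partly under promoter peaks measured here and 2 of the genes encode proteins that keep E proteins from E-boxes. Each is written 5′ to 3′ on the strand of the gene, with every E-box in capitals. The E-box was searched as CANNTG, which reads the same on both strands.
Id3, chr4:136143572-136143821, + strand: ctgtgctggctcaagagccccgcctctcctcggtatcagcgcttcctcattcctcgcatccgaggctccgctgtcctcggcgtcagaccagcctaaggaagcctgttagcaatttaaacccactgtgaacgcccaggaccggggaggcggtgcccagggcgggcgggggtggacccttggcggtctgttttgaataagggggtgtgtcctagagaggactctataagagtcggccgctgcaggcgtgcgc
Id2, chr12:25096093-25096342, - strand: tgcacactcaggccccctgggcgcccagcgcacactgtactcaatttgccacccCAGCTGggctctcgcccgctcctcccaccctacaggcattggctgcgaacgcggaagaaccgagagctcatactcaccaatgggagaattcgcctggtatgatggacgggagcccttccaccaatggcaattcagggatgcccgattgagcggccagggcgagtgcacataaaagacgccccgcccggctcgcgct
Tcf12, chr9:72111820-72112069, - strand: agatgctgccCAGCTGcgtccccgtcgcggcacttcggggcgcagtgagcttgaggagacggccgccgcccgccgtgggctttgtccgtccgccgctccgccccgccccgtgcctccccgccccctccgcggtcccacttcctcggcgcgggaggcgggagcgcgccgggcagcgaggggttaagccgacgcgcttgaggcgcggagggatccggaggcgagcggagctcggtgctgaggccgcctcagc
Tcf3, chr10:80433636-80433885, - strand: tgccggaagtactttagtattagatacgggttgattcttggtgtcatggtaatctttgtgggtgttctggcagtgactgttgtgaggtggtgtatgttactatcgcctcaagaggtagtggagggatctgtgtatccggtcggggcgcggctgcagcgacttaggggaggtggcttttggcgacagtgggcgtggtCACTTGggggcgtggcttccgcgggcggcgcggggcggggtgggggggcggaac

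The Id3 window held 0 E-boxes, and all of it lay under the Id3 promoter peak. In Id2 the window held 1, of the form CAGCTG, and in Tcf12 the printed window also held 1 CAGCTG. Tcf3 had 1 of the form CACTTG, and 86 bases of its window lay under the promoter peak. That window precedes a RefSeq start at 80433635, inside the gene span, with no peak over it, while Tcf3 distances and its promoter peak refer to the end of the span at 80433976. The remaining Tcf12 windows, at starts 0.7 kb and 215.8 kb into the gene by their peaks, held 1 E-box (CAAGTG) and 0. None of the 6 windows held CAGGTG or its reverse complement CACCTG. Among all 32851 RefSeq windows of the same length 66.2% held a CANNTG, 17.2% held CAGGTG or CACCTG and 13.0% held CAGCTG. These matches describe letters in a window and say nothing of binding.

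Library totals lay between 6431354 (HOMO CC 1) and 45590454 counts (HOMO CB 3), and the 99 peaks held 8555 to 70699 of those counts (0.131 to 0.155%). The shallowest libraries were those numbered 1 in HOMO. Summed over 3 peaks at Xist, whose RNA silences an X chromosome, the values were 4.58 CPM in WT CB 2 and 6.02 CPM in WT CC 2, against 12.5 to 31.6 CPM in the other 10 libraries. Results were therefore also computed with the HOMO pair numbered 1 left out and with the WT pair numbered 2 left out. At Pbrm1 itself the gene-end peak differed between genotypes by -0.04 (log2) in CB, with an adjusted p of 0.931, and by -0.09 in CC, with an adjusted p of 0.855. The sources used here do not say which part of Pbrm1 is deleted, so that peak checks no label. The other Pbrm1 peak, within the gene, had 0.67 in CB and 0.63 in CC (adjusted p of 0.27 and 0.347). Of the marker genes, 5 of 5 for B cells and 6 of 6 for germinal center B cells had a peak at a gene end (strongest peak of each), with summed levels of 226 to 273 CPM and 181 to 231 CPM over all libraries. So did 4 of 4 for plasma cells (mean 35 CPM per marker, beside 34.6 CPM for germinal center cells) and 5 of 5 for naive and follicular B cells (27.5 CPM). Gene-end peaks therefore did not single out the labelled cells from other B lineage cells. Of the T cell markers 2 of 7 had one (Cd3d and Cd5), with sums of 35.8 to 54.9 CPM, and Cd3e, Cd3g, Cd4, Cd8a and Lck had none. Of the natural killer and innate lymphoid markers 1 of 6 did (Eomes, 3.35 to 4.91 CPM). The plasmacytoid dendritic cell markers had 1 of 5 (Bst2), the myeloid 2 of 5 (Cebpa and Spi1) and the erythroid 1 of 5 (Klf1).

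Per peak, all of 501 bp, the 6 genes differed in how open they were. The mean level of a peak over all libraries was 28.1 CPM at Tcf3, 27.1 CPM at Id2, 19.5 CPM at Id3, 11.6 CPM at Tcf12, 11 CPM at Tcf4 and 9.63 CPM at Id1. CPM is the count of a peak scaled to a common library size with TMM factors. The strongest peaks of the set were the promoter peak of Id2 (55.9 CPM), the promoter peak of Tcf3 (54.1 CPM) and an Id3 peak at -16.0 kb (50.8 CPM), where a negative distance lies before the start of the gene span. Tcf4 was covered differently, since its 45 peaks ran over a span of 344539 bp and no peak held more than 7.13% of its summed signal. With 45 peaks it ranked 14 of 14265 genes by number of peaks, and 99.9% of genes had fewer, while the median gene had 3. At Id1 and Id2 the promoter peak held 53% and 51.5% of the summed signal. At Tcf12 the strongest peak was not at a start but 135.7 kb into the gene (27.2 CPM). In the same way the strongest Tcf4 peak lay 155.8 kb from the lower-coordinate end of the span (35.2 CPM). No strand was given for Tcf4 and Id1 in the tables used, so their distances count from the lower-coordinate end.

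On the rule's limit, the outermost peaks inside were at Id2, 47.5 kb away (mean 2.11 CPM), and at Id3, 43.6 kb away (14.2 CPM). The nearest outside were at Tcf12, 58.2 kb away (1.68 CPM), and at Id2, 59.5 kb away (6.83 CPM). Neither outside peak was called in any comparison.

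The first comparison asked what loss of Pbrm1 did to these genes in CB. Taken gene by gene, the summed accessibility of Tcf3 was higher in HOMO CB and that of the other 5 genes did not pass the test. Tcf3 had 165, 162 and 166 CPM in the WT CB libraries and 181, 199 and 202 CPM in HOMO CB, so the groups did not overlap. The log2 fold change was 0.24 (SE 0.07, edgeR quasi-likelihood adjusted p = 0.0424), a 1.18-fold difference. A value was called here when its Benjamini-Hochberg adjusted p, over all genes or all peaks tested, was under 0.05. Of all 14265 summed genes 7.06% were called in CB in either direction, and 1 of the 6 genes here. That call was lost when any 1 of WT CB 1, WT CB 2, WT CB 3, HOMO CB 2 or HOMO CB 3 was left out (adjusted p of 0.0308 to 0.18 over the 6 single omissions).

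In CC the Tcf3 sum was 148, 162 and 165 CPM in WT and 171, 183 and 202 CPM in HOMO. All HOMO CC libraries again lay above all WT CC libraries, with a log2 fold change of 0.23 that did not pass (SE 0.07, adjusted p = 0.0627; 4.11% of genes were called in CC). It passed with DESeq2 (adjusted p = 0.0199), within 10 kb (0.0429) and without HOMO CC 1 (0.0216), in a range of 0.00414 to 0.271 over its 10 alternatives. Ordered by mean, the Tcf3 levels were 194 ± 11.1 CPM in HOMO CB, 186 ± 15.6 in HOMO CC, 165 ± 2.16 in WT CB and 158 ± 8.96 in WT CC (SD, n = 3). Neighbours of the same genotype in that order lay within their spread. Tcf3 encodes the E2A proteins E12 and E47, the E proteins most studied in B cells.

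Tcf4, which encodes E2-2, had sums of 495, 527 and 497 CPM in WT CB and 495, 550 and 556 CPM in HOMO CB. The groups overlapped, with a log2 fold change of 0.08 (SE 0.07, adjusted p = 0.537). In CC its sums were 457, 487 and 511 CPM in WT and 475, 558 and 555 CPM in HOMO (log2 fold change 0.13, SE 0.07, adjusted p = 0.322). Tcf12, which encodes HEB, went from 260 ± 7.01 to 278 ± 31.9 CPM in CB and from 255 ± 17.7 to 264 ± 19.1 CPM in CC, with log2 fold changes of 0.10 and 0.05 (adjusted p of 0.471 and 0.751). For Tcf12 all 4 group means lay within their spread.

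Among the inhibitors, Id3 had positive and Id1 negative genotype differences, and neither was called with edgeR. Id3 had 369, 332 and 362 CPM in WT CB and 377, 416 and 459 CPM in HOMO CB. Every HOMO CB library was above every WT CB library, by a log2 fold change of 0.24 (SE 0.08, adjusted p = 0.0773). This Id3 sum passed with DESeq2 (adjusted p = 0.0402), within 10 kb (0.0252) and without HOMO CB 1 (0.038), in a range of 0.00642 to 0.285 over its 10 alternatives. In CC it had 323, 311 and 333 CPM in WT and 328, 372 and 400 CPM in HOMO, where the lowest HOMO library lay within the WT range (0.19, SE 0.08, adjusted p = 0.182; 0.0444 without HOMO CC 1, in a range of 0.0302 to 0.508). Id1 had 45.8, 48.3 and 43 CPM in WT CB and 39.5, 34.8 and 41 CPM in HOMO CB, and 44.1, 42 and 39 CPM in WT CC and 33.3, 33.7 and 35.8 CPM in HOMO CC. The HOMO libraries lay below the WT libraries in both populations, with log2 fold changes of -0.25 (SE 0.09, adjusted p = 0.0943) and -0.28 (SE 0.09, adjusted p = 0.0875). Id2, which in other lymphocytes is a main brake on E proteins, differed by -0.06 and -0.07 (SE 0.06 each, adjusted p of 0.618 and 0.585), with group means of 108 to 118 CPM.

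In such bulk libraries a change in the share of some cells and a change in the accessibility of each cell cannot be told apart. The summed marker peaks of germinal center cells were 203 to 209 CPM for WT and 217 to 231 CPM for HOMO in CB, and 181 to 189 CPM in WT CC and 211 to 216 CPM in HOMO CC, without overlap. Those of B cells were 239 to 253 CPM for WT and 261 to 270 CPM for HOMO in CB, and 226 to 230 and 230 to 273 CPM in CC. Plasma cell sums (4 of 4 with a peak) went from 150 to 153 CPM in WT CB to 137 to 147 CPM in HOMO CB. In CC they were 133 to 138 CPM for WT and 126 to 133 CPM for HOMO. The erythroid Klf1 went from 10.3 to 14.5 CPM down to 6.7 to 9.43 CPM in CB, and from 8.69 to 9.78 CPM down to 5.47 to 7.37 CPM in CC. The myeloid Cebpa and Spi1 together had 41.8 to 45.2 CPM for WT and 48.9 to 51.5 CPM for HOMO in CB, and overlapped in CC (34.9 to 42.7 and 39.2 to 47.5 CPM). The other marker lists overlapped between genotypes in both populations. The part of such differences in the results for E protein and Id genes was not tested.

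Depth moved with these sums too. In both HOMO groups the library numbered 1, the shallowest, had the lowest sum of its group for Tcf3, Tcf4, Tcf12 and Id3. The part of depth in the genotype differences was not tested for the sums, and for single peaks a fit with the library total as a covariate is given in the closing section.

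**Figure D1:**
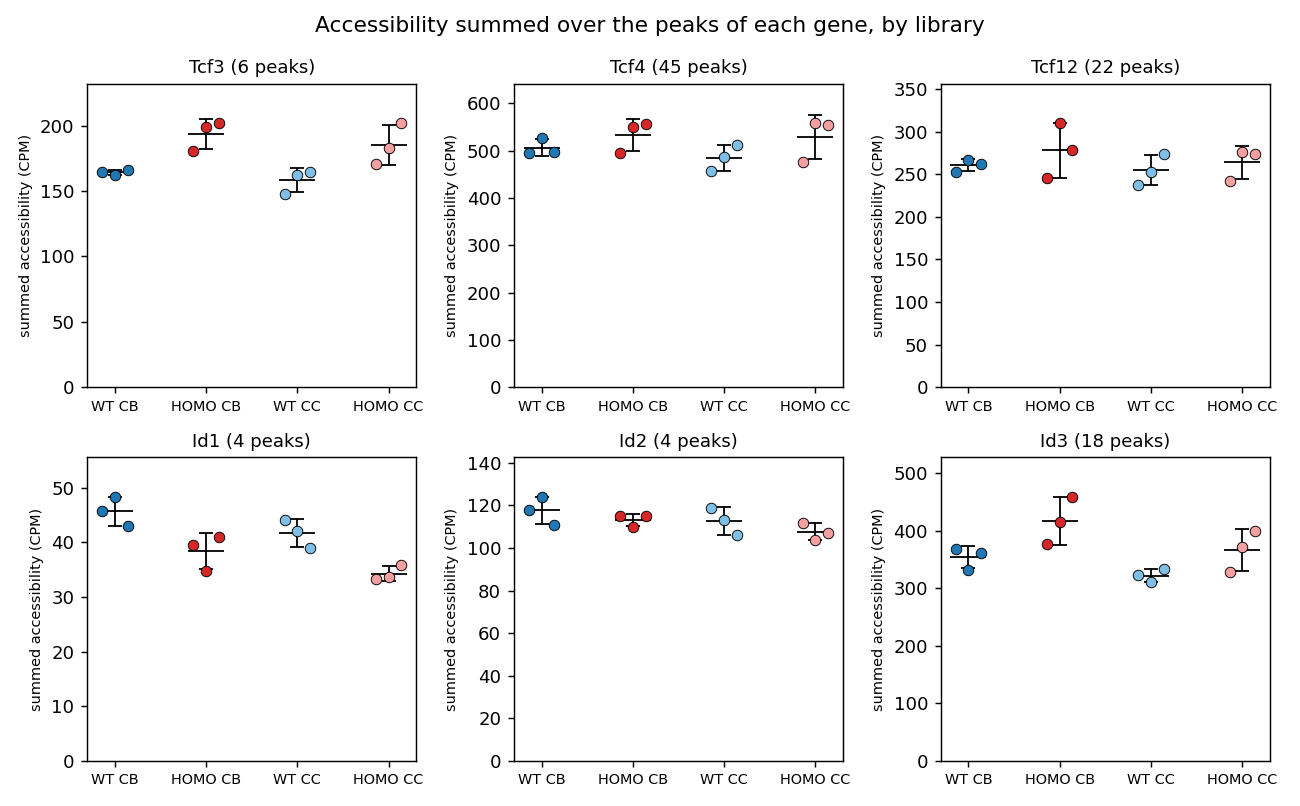
Accessibility summed over the peaks of each of the 6 genes, in CPM, for the 3 libraries of each group (points; the line and bars are the mean and SD). The HOMO libraries lie above the WT libraries of the same population at Tcf3 and below them at Id1.

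At single peaks the genotype effect in CB was called at 2 of the 99, 1 in each direction. Over all peaks 0.779% were called higher and 3.85% lower, against 1.01% and 1.01% here. The lower one lay 1.1 kb below the lower-coordinate end of Id1 (chr2:152734929-152735429). It had 12.3, 13.3 and 14.5 CPM in WT CB and 8.12, 7.21 and 10.3 CPM in HOMO CB, with no overlap, and fell with a log2 fold change of -0.64 (SE 0.17, adjusted p = 0.0355). In CC the same Id1 peak had 10.4, 10.8 and 12 CPM in WT and 9.02, 6.89 and 9.25 CPM in HOMO (-0.42, adjusted p = 0.205). The promoter peak of Id1, beside it, went from 24.3 ± 2.69 to 19.9 ± 2.84 CPM in CB and from 20.7 ± 2.02 to 16.7 ± 0.749 CPM in CC, with a log2 fold change of -0.30 in each that did not pass.

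The higher one lay at -14.3 kb from Id3 (chr4:136129241-136129741). It had 6.24, 5.5 and 6.0 CPM in WT CB and 8.38, 8.49 and 10.4 CPM in HOMO CB, again with no overlap, and rose with a log2 fold change of 0.62 (SE 0.17, adjusted p = 0.0358). In CC it had 9.08, 11.1 and 9.15 CPM in WT and 10.8, 13.3 and 12.8 CPM in HOMO, where the groups overlapped (0.35, adjusted p = 0.266). Over the 16 alternatives the Id1 value ran from -0.82 to -0.51 and the Id3 value from 0.51 to 0.68, and each call needed nearly all of the CB libraries. For Id1 the call was lost without any 1 of WT CB 1, WT CB 2, WT CB 3, HOMO CB 1 or HOMO CB 2 (adjusted p up to 0.226). For Id3 it was lost without any 1 of the WT CB libraries, HOMO CB 2 or HOMO CB 3 (adjusted p up to 0.181). Without both WT libraries numbered 2 the count of called peaks was 0, where 1660 of all peaks were called.

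In CC 0 of the 99 peaks were called in the edgeR fit of 4 group means, where 0.578% of all peaks were called higher and 2.17% lower. At an unadjusted p under 0.05 there were 19, 13 of them higher and 6 lower (13.1% and 6.06%, beside 7.22% and 9.95% of all peaks). DESeq2 called 2, where it called 4.55% of all peaks, and limma voom 3, where it called 5.89%. The smallest adjusted p belonged to an Id3 peak at -33.1 kb. It had 7.68, 8.06 and 11.1 CPM in WT CC and 12.4, 13.4 and 15.4 CPM in HOMO CC (0.61 on the log2 scale, SE 0.17, adjusted p = 0.0572). Next was a peak within Tcf3 at 4.1 kb, with 32.4, 33.9 and 33.5 CPM in WT CC and 40.7, 38.4 and 45.4 CPM in HOMO CC (0.32, SE 0.09, adjusted p = 0.0686). DESeq2 called these 2 peaks. Without both HOMO libraries numbered 1 the edgeR count in CC was 4, where 4442 of all peaks were called.

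Short of the threshold, signs were uneven between the genes. All 4 Id2 peaks had a log2 fold change under 0 in both populations, and so had 3 of 4 Id1 peaks in CB and 4 of 4 in CC. At Id3 17 of 18 peaks were above 0 in CB and 17 of 18 in CC, and at Tcf3 4 of 6 and 6 of 6. Medians were 0.21 and 0.18 at Id3, 0.18 and 0.24 at Tcf3, 0.06 and 0.16 at Tcf4, 0.09 and 0.10 at Tcf12, -0.29 and -0.30 at Id1 and -0.13 and -0.08 at Id2. Over all 99 peaks the medians were 0.09 in CB and 0.15 in CC, beside 0.01 and 0.02 over all peaks tested. With the library total as covariate they were 0.03 and 0.13, beside 0 and 0.02. Groups did not overlap at 16 peaks with HOMO above WT in CB (16.2%, against 10.3% of all peaks) and at 5 with HOMO below (5.05%, against 13.2%). In CC those counts were 16 (16.2%, against 9.81%) and 7 (7.07%, against 11.2%). Peaks of a gene share its neighbourhood and its libraries, and are not replicates.

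Position in the gene entered these medians. The 62 peaks within a gene, away from its ends, had a median of 0.11 in CB beside 0.05 for all such peaks, the 29 between genes 0.06 beside 0.05, and the 8 gene-end peaks -0.09 beside -0.11. In CC the same medians were 0.16 beside 0.06, 0.08 beside 0.05, and 0.06 beside -0.07. None of the 8 gene-end peaks was called for genotype in either population with edgeR without the block, while limma voom called the Tcf12 peak at 0.7 kb in CC. At the Tcf3 promoter the levels were 49.6 ± 3.35 CPM for WT and 56.0 ± 4.7 CPM for HOMO in CB (log2 fold change 0.17, adjusted p = 0.326). At the Id3 promoter they were 32.9 ± 1.05 and 34.7 ± 2.61 CPM (0.07, adjusted p = 0.737), and at the Id2 promoter 59.5 ± 1.36 and 54.7 ± 3.15 CPM (-0.13, adjusted p = 0.421). The first Tcf12 start, whose window is printed above, had 22.6 ± 3.36 and 20.6 ± 0.407 CPM (-0.14, adjusted p = 0.625). The lower-coordinate end of Tcf4 had 36.8 ± 1.6 and 35.2 ± 3.54 CPM (-0.08, adjusted p = 0.747).

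**Figure D2:**
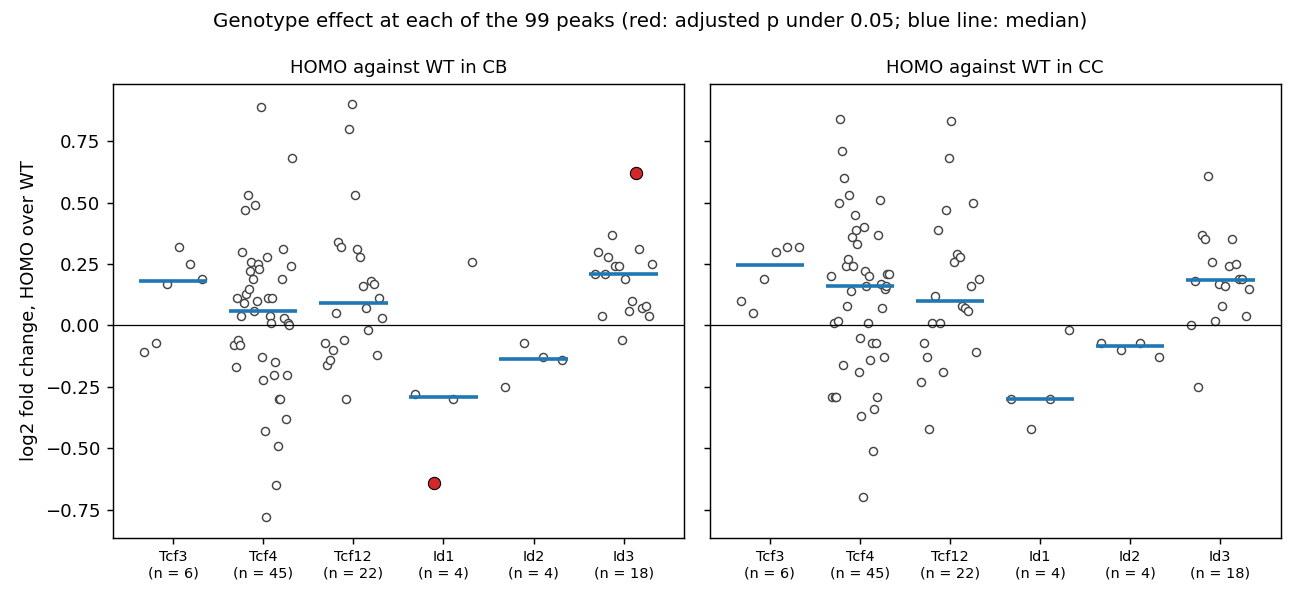
Log2 fold change of HOMO over WT at each of the 99 peaks, grouped by gene, in CB (left) and CC (right). Red points passed the test, 2 in CB and 0 in CC, open points did not, and the blue lines are the medians of each gene, above 0 at Tcf3, Tcf4, Tcf12 and Id3 and below 0 at Id1 and Id2.

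The second comparison set CC against CB within each genotype. Same-numbered CB and CC libraries of a genotype deviated together, so a fit with the replicate number as a block is given beside each count. In WT 11 of the 99 peaks were called, 3 higher in CC and 8 lower, where 3.35% of all peaks were higher and 2.08% lower. With the block the count in WT was 23, 7 higher and 16 lower, including all 11, where 22.1% of all peaks were called. In HOMO 8 peaks were called, 3 higher and 5 lower, where 4.78% of all peaks were higher and 2.44% lower. With the block the count in HOMO was 26, 9 higher and 17 lower, including all 8, where 22.2% of all peaks were called. Lower peaks thus made up 8.08% of the set in WT and 5.05% in HOMO. Without both WT libraries numbered 2 only 1 peak was called in WT, the Tcf3 peak at -9.2 kb described below, where 527 of all peaks were called. Both genotypes were called at 5 peaks, the Tcf3 peaks at -9.2 kb and 3.6 kb, the Id3 peaks at -33.1 kb and -31.4 kb and the strongest Tcf4 peak. That is 5.05% of the set, beside 3.69% of all peaks called in both genotypes, and with the block the count was 16 (16.2%), beside 13.4% of all peaks.

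Markers moved with the population too. Summed germinal center markers went from 203 to 209 CPM in WT CB down to 181 to 189 CPM in WT CC, and from 217 to 231 CPM down to 211 to 216 CPM in HOMO. Those of plasma cells went from 150 to 153 CPM down to 133 to 138 CPM in WT and from 137 to 147 CPM down to 126 to 133 CPM in HOMO. B cell markers went from 239 to 253 CPM down to 226 to 230 CPM in WT, and overlapped in HOMO (261 to 270 and 230 to 273 CPM). The T cell Cd3d and Cd5 rose in HOMO from 35.8 to 45.6 CPM up to 46 to 53.1 CPM, and overlapped in WT (36.5 to 47.1 and 44.8 to 54.9 CPM). Cebpa and Spi1 fell in HOMO from 48.9 to 51.5 CPM down to 39.2 to 47.5 CPM, and overlapped in WT. Klf1 fell in WT from 10.3 to 14.5 CPM down to 8.69 to 9.78 CPM, and overlapped in HOMO. The remaining lists overlapped in both genotypes. The part of these shifts in the differences between CC and CB was not tested.

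At Tcf3 the called peaks went in opposite directions, with 1 higher in CC before the start and those inside the gene lower. The other peak before the start, at -12.5 kb, was not called (-0.24 in WT and -0.04 in HOMO, adjusted p of 0.395 and 0.936). A peak at -9.2 kb (chr10:80442899-80443399), between genes, had 9.46, 11.8 and 10.8 CPM in WT CB and 16.6, 23.1 and 20.5 CPM in WT CC. It had 9.82, 9.44 and 10.9 CPM in HOMO CB and 17.3, 20.6 and 23.6 CPM in HOMO CC. All CC libraries were above all CB libraries in both genotypes, and the peak rose 1.9-fold in WT (log2 fold change 0.92, SE 0.16, adjusted p = 0.00171) and 2.06-fold in HOMO (1.04, SE 0.15, adjusted p = 0.000313). Between genotypes it differed by -0.07 in CB and 0.05 in CC (adjusted p of 0.848 and 0.916). Its call held under all 15 alternatives in each genotype, with adjusted p of 1.13e-09 to 0.0363 in WT and 4.58e-13 to 0.00454 in HOMO.

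Inside Tcf3, 3.6 kb from the start (chr10:80430138-80430638), a peak within the gene (exons and introns are not told apart in the tables used) had 33.6, 28.7 and 32.8 CPM in WT CB and 21.5, 22.3 and 24.6 CPM in WT CC. In HOMO it had 34.3, 38.3 and 45.3 CPM in CB and 24.2, 26.7 and 32.2 CPM in CC. CC lay below CB without overlap in both, and the peak fell with log2 fold changes of -0.48 (SE 0.13, adjusted p = 0.0284) and -0.50 (SE 0.12, adjusted p = 0.0159). The neighbouring peak at 4.1 kb went from 42.7 ± 2.4 to 33.3 ± 0.749 CPM in WT, a called difference of -0.36 (adjusted p = 0.0271), and from 50.8 ± 2.26 to 41.5 ± 3.54 CPM in HOMO (-0.29, adjusted p = 0.0615; 0.000552 with the block). The promoter peak between them and the distal site had differences of 0.06 and 0.08 (adjusted p of 0.772 and 0.743). Summed over its 6 peaks Tcf3 differed by -0.05 in WT and -0.06 in HOMO, and none of the 6 gene sums was called for CC against CB, where 3.81% of genes were called in WT and 4.99% in HOMO.

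**Figure D3:**
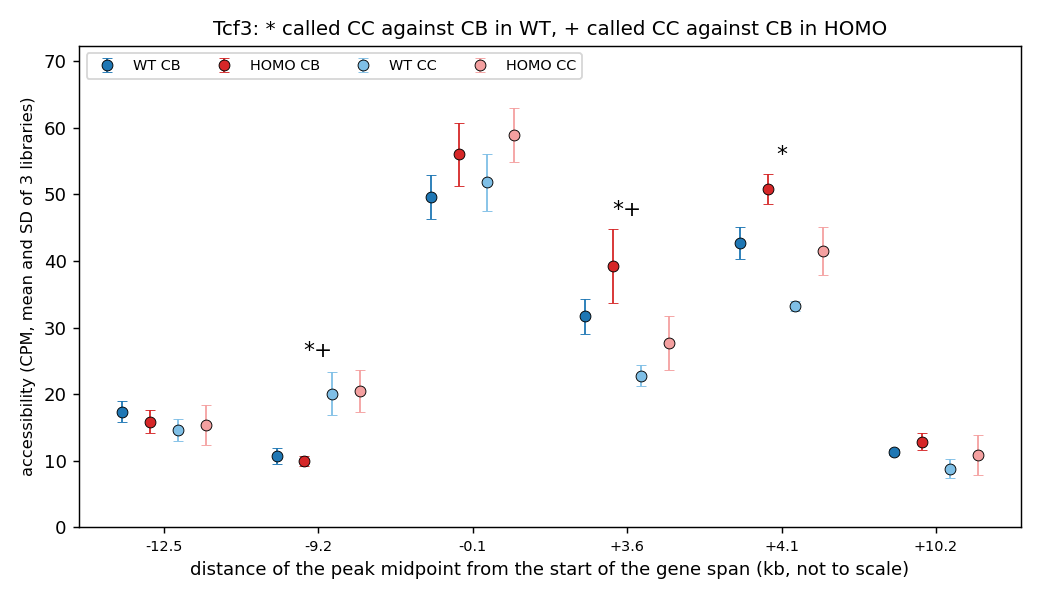
Mean accessibility in CPM (points, with SD of 3 libraries) of the 6 Tcf3 peaks in the 4 groups, ordered by distance from the start of the gene. CC lies above CB at -9.2 kb and below CB at +3.6 and +4.1 kb in both genotypes, and the promoter peak at -0.1 kb has overlapping groups.

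Of the 4 Id3 peaks called lower in CC in either genotype without the block, 3 lay more than 30 kb before the gene and 1 at 0.9 kb. At -33.1 kb (chr4:136110460-136110960) the levels were 17.3, 17.8 and 18 CPM in WT CB and 7.68, 8.06 and 11.1 CPM in WT CC, and 17.3, 22.5 and 27.4 CPM in HOMO CB and 12.4, 13.4 and 15.4 CPM in HOMO CC. CC was below CB without overlap in both genotypes, with log2 fold changes of -0.96 (SE 0.17, adjusted p = 0.00264) and -0.71 (SE 0.17, adjusted p = 0.0105). At -31.4 kb (chr4:136112212-136112712) the peak fell from 20 ± 1.82 to 11.8 ± 2.28 CPM in WT (-0.75, adjusted p = 0.0252) and from 23.3 ± 5.05 to 13.8 ± 3.95 CPM in HOMO (-0.73, adjusted p = 0.0211). A peak at -37.8 kb fell in HOMO from 28.4 ± 4.91 to 19.2 ± 2.86 CPM (-0.57, adjusted p = 0.0113) and had -0.44 in WT (adjusted p = 0.0595). The 3 peaks between these, at -36.8, -34.5 and -33.8 kb, were not called in either genotype, with values of 0.14, -0.36 and -0.46 in WT and -0.15, -0.19 and -0.39 in HOMO. With the block the peak at -34.5 kb passed in WT (adjusted p = 0.0199), and the peak at -33.8 kb passed in WT (0.00866) and in HOMO (0.0156). In HOMO peaks at -43.6 kb (-0.39, 0.00325) and -23 kb (-0.35, 0.0215) then passed as lower too, and one at -21.9 kb as higher (0.5, 0.00145).

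Closer to Id3, the peak at -14.3 kb that was higher in HOMO CB was also higher in CC than in CB in WT (5.91 ± 0.381 to 9.79 ± 1.17 CPM, log2 fold change 0.71, SE 0.17, adjusted p = 0.0153), and had 0.44 in HOMO (adjusted p = 0.109; 0.00516 with the block). At the far end of the gene, 0.9 kb from the start, the peak fell in WT from 24.1 ± 2.45 to 17.8 ± 1.74 CPM (-0.44, adjusted p = 0.0408), and had -0.33 in HOMO (adjusted p = 0.122; 0.0033 with the block). The strongest Id3 peak, at -16.0 kb, had 45.9 to 54.1 CPM as group means and was not called in any comparison, and the promoter peak at -0.1 kb had 28.7 to 34.7 CPM and was not called either. Of the 18 Id3 peaks 14 were under 0 in WT and 15 in HOMO, with medians of -0.18 and -0.17.

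**Figure D4:**
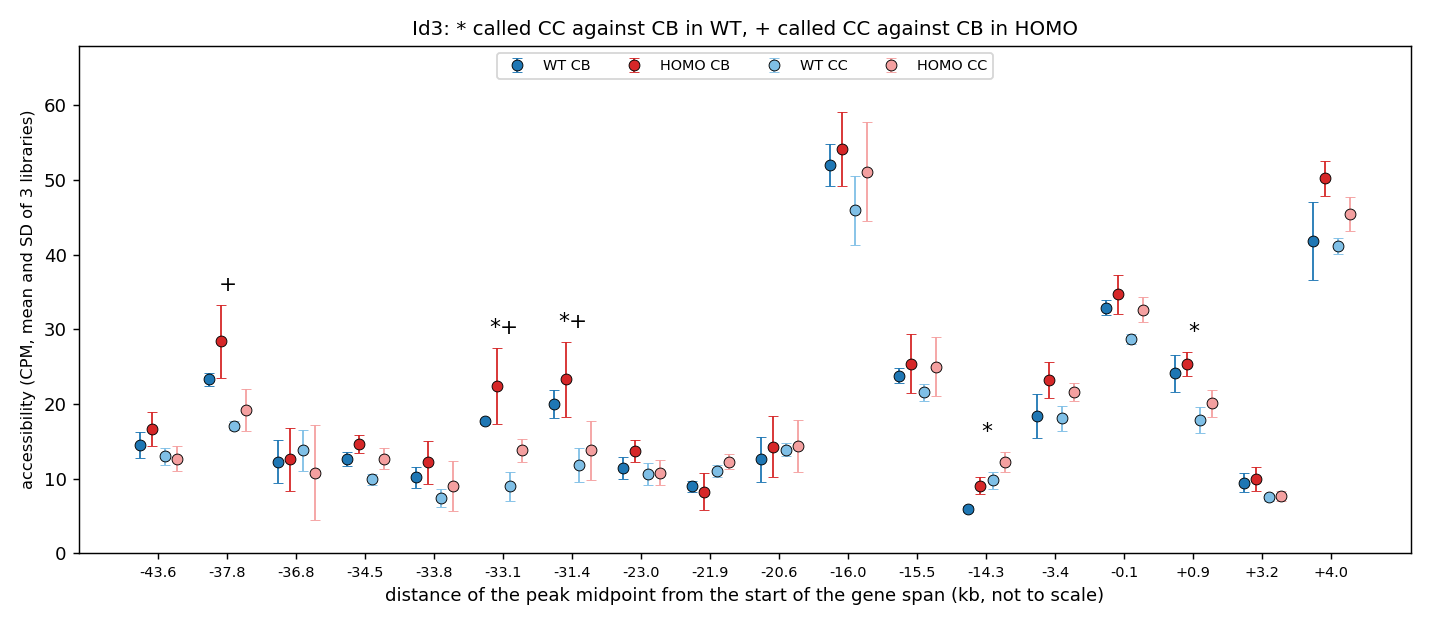
Mean accessibility in CPM (points, with SD of 3 libraries) of the 18 Id3 peaks in the 4 groups, ordered by distance from the start of the gene. CC lies below CB at -37.8, -33.1 and -31.4 kb, and at -14.3 kb WT CB is the lowest group.

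Without the block Tcf4 had its called losses at strong peaks deep in the gene. The strongest (chr18:69498950-69499450, 155.8 kb from the lower-coordinate end) had 35.7, 49.2 and 40.0 CPM in WT CB and 22.9, 26.2 and 31.4 CPM in WT CC, and 45.1, 41.3 and 43.2 CPM in HOMO CB and 21.4, 30.2 and 35.3 CPM in HOMO CC. CC was below CB without overlap in both genotypes (log2 fold changes of -0.61, SE 0.15, adjusted p = 0.0235, and -0.54, SE 0.15, adjusted p = 0.0354). At 248.4 kb a peak fell in WT from 28.2 ± 1.18 to 20.1 ± 2.1 CPM (-0.48, adjusted p = 0.0297), and had -0.37 in HOMO (adjusted p = 0.0771; 0.00133 with the block). Higher in CC was a weak peak at 72.1 kb, from 2.24 ± 0.132 to 4.04 ± 0.942 CPM in WT (0.86, adjusted p = 0.0379), with 0.57 in HOMO (adjusted p = 0.167). With the block, Tcf4 peaks at 0.9 kb (-0.22, adjusted p = 0.027) and 139.2 kb (-0.57, 0.00912) were also called lower in WT. In HOMO peaks at 2.9 kb (-0.27, 0.0475) and 29.7 kb (-0.55, 0.0393) were, and in both genotypes the peak at 249 kb (0.000466 and 0.00687). Peaks at 56.6, 291.3 and 300.8 kb were then called higher in HOMO (0.00224, 0.00951 and 0.00179).

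A further Tcf4 peak at 301.4 kb, which also lies inside the span of the long noncoding RNA gene Gm31439, rose in HOMO. It had 11.8, 21.3 and 24.2 CPM in HOMO CB and 26.3, 36.9 and 38.9 CPM in HOMO CC (0.80 on the log2 scale, SE 0.22, adjusted p = 0.0382), against 24.0, 21.8 and 31.2 CPM in WT CB and 28.6, 30.2 and 39.3 CPM in WT CC (0.34, adjusted p = 0.416; 0.00121 with the block). The HOMO groups did not overlap and the WT groups did. The difference between the genotypes there was 0.46 on the log2 scale and did not pass the test of that difference (unadjusted p = 0.157). With the replicate number within genotype as a block its unadjusted p was 0.00019 and its adjusted p 0.521.

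Without the block Tcf12 was called at 1 peak, its strongest, 135.7 kb into the gene (chr9:71975978-71976478). It had 26.2, 33.2 and 31.8 CPM in WT CB and 17.9, 20.9 and 22.8 CPM in WT CC, without overlap, and fell with a log2 fold change of -0.55 (SE 0.15, adjusted p = 0.0386). In HOMO it had 26.3, 38.3 and 35.2 CPM in CB and 19.2, 25.3 and 29.1 CPM in CC, with overlap (-0.43, adjusted p = 0.0961; 2.15e-05 with the block). With the block, Tcf12 peaks at 14.7 kb (0.6, adjusted p = 0.0427) and 35.6 kb (0.6, 0.0123) were also called higher in WT. In HOMO a peak at 64.7 kb was then called higher (0.78, 0.0224) and one at 158.6 kb lower (-0.27, 0.0362). At the 3 starts of Tcf12 with a promoter window, under peaks at 0.1, 0.7 and 215.8 kb, no peak was called in any comparison with edgeR without the block. The one at 0.7 kb had -0.42 for genotype in CC (adjusted p = 0.115), and was called there by limma voom.

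**Figure D5:**
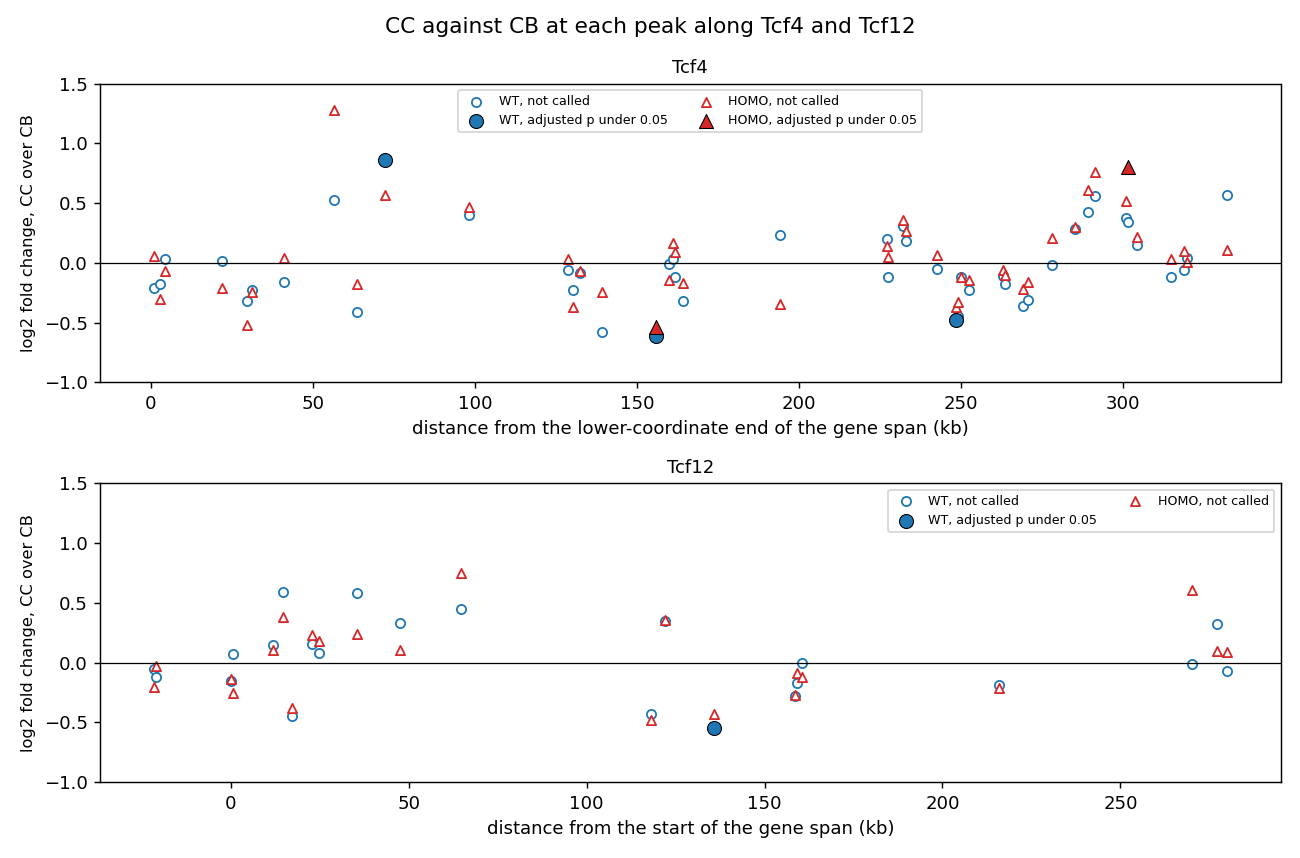
Log2 fold change of CC over CB at the 45 Tcf4 peaks (top) and the 22 Tcf12 peaks (bottom) against distance along the gene in kb, in WT (circles) and HOMO (triangles), filled where called. The strongest peaks, at 155.8 kb in Tcf4 and 135.7 kb in Tcf12, have values of -0.61 and -0.54, and of -0.55 and -0.43, in WT and HOMO.

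Id1 had no peak called between CC and CB, with log2 fold changes of -0.27 to 0.14 in WT and -0.31 to 0.12 in HOMO. Without the block Id2 had 1 called peak, the outermost of the set, at -47.5 kb and inside the span of the long noncoding RNA gene Gm36287. It is weak, with 0.393, 1.06 and 1.75 CPM in HOMO CB and 2.22, 2.68 and 3.38 CPM in HOMO CC (1.21, SE 0.34, adjusted p = 0.0329). WT was alike in direction and not called, with 1.17, 2.18 and 1.33 CPM in CB and 3.73, 2.83 and 2.55 CPM in CC (1.03, SE 0.35, adjusted p = 0.0925; 0.00723 with the block). The groups did not overlap in either genotype. The Id2 promoter peak had -0.09 and -0.03 (adjusted p of 0.582 and 0.891). With the block the Id2 peak at -2.8 kb was also called lower in CC, in WT (-0.2, adjusted p = 0.0327) and in HOMO (-0.24, 0.0101).

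These population calls were also set against left-out libraries, in the fit without the block. An omission there also left the same-numbered library without its partner. Apart from the Tcf3 peak at -9.2 kb in both genotypes and the Id3 peak at -33.1 kb in WT (adjusted p of 0.00104 to 0.0223 over the single omissions), each call was lost when some single library was left out. For the Id3 peaks at -37.8 and -33.1 kb in HOMO these were HOMO CB 3 and HOMO CC 2 (adjusted p up to 0.102 and 0.0949). For the strongest Tcf4 peak they were WT CB 2, WT CC 1 and WT CC 2 in WT, up to 0.108, and HOMO CB 1, 2 and 3 and HOMO CC 1 and 2 in HOMO, up to 0.117. For the Tcf3 peak at 3.6 kb they were WT CB 1, WT CB 3, WT CC 1 and WT CC 2 in WT, up to 0.117, and HOMO CB 3, HOMO CC 1 and HOMO CC 2 in HOMO, up to 0.119. For the Id3 peak at -31.4 kb they were WT CB 1, WT CB 3, WT CC 1 and WT CC 2 in WT, up to 0.123, and HOMO CB 2, HOMO CB 3, HOMO CC 1 and HOMO CC 2 in HOMO, up to 0.114. The other calls, made in 1 genotype, reached 0.0887 to 0.191 when a library was left out. With all libraries and the block, each of these population calls passed. The adjusted p was then 7.44e-08 in WT and 9.81e-09 in HOMO for the Id3 peak at -31.4 kb. For the Tcf3 peak at 3.6 kb it was 5.98e-06 and 2.4e-07, and for the strongest Tcf4 peak 2.42e-06 and 2.14e-05. No direction turned in any of these fits.

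The third comparison asked whether the genotype effect differed between CC and CB. None of the 99 peaks was called, nor any of all 68689 (0% higher and 0% lower), nor any gene sum (0%). With edgeR 0 of the 99 peaks had an unadjusted p under 0.05, beside 416 higher and 394 lower of all 68689 peaks. So small a share of all peaks leaves few to be found among 99. It is also below the share that a p under 0.05 gives where no peak differs, so 0 here does not show equal effects. That fit left out the pairing of CB and CC libraries, whose part in the low share was not tested. With DESeq2 there were 0 and with limma voom 1, without a count over all peaks. With the replicate number as a block there were 2, and with the number within genotype as a block 3, also without such a count. Each of these fits called 0 of all peaks. The genotype effects in CC and CB, and the population effects in WT and HOMO, share libraries, so each comparison's values were given side by side above.

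Genes around the E protein and Id axis were read from 3 lists. These were chosen with earlier results of these data known, so their shares beside all peaks are descriptions and no tests. The list of partners and antagonists of E proteins, such as the Tal and Lmo factors, the ETO family corepressors and the acetyltransferases, had peaks at 16 of 18 genes and 128 peaks. In CB 0 of them rose and 1 fell (0% and 0.781%, beside 0.779% and 3.85% of all peaks). In CC 3 rose and 2 fell (2.34% and 1.56%, beside 0.578% and 2.17%), with medians of 0.00 and 0.11. The peak that fell in CB lay at an end of Cbfa2t2, an ETO family corepressor (16.6 ± 0.894 to 11.1 ± 2.43 CPM, -0.63, adjusted p = 0.0461). In CC a peak 37950 bp from Cbfa2t3, of the same family, rose (4.37 ± 0.307 to 8.24 ± 0.615 CPM, 0.94, adjusted p = 0.0179), and so did one 11152 bp from Tal2 (13.1 ± 1.82 to 20.8 ± 1.07 CPM, 0.68, adjusted p = 0.0168). A peak at an end of Tal1, a partner of E proteins in blood cells, fell there (7.28 ± 0.344 to 3.97 ± 0.786 CPM, -0.83, adjusted p = 0.0282).

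The list of BMP, TGF-beta and Egr genes, whose signals are known to induce Id genes, had peaks at 16 of 18 genes and 124 peaks. In CB 2 rose and 10 fell (1.61% and 8.06%, beside 0.779% and 3.85% of all peaks). In CC 1 rose and 3 fell (0.806% and 2.42%, beside 0.578% and 2.17%), with medians of -0.06 and -0.03. The smallest p was at a peak within Bmpr1a, the gene of a BMP receptor, which went from 5.49 ± 1.04 to 1.88 ± 0.27 CPM in CB (-1.54, adjusted p = 0.00163) and from 5.77 ± 0.243 to 1.85 ± 0.448 CPM in CC (-1.59, adjusted p = 0.0053). Bmpr1a lies on chromosome 14, as Pbrm1 does. The peak at the end of Bmpr1a fell in CB from 15.6 ± 1.1 to 9.59 ± 0.39 CPM (-0.70, adjusted p = 0.00937). A peak within Smad3, the gene of a TGF-beta signal transducer on chromosome 9, fell in CB from 14.7 ± 1.38 to 7.39 ± 0.424 CPM (-0.99, adjusted p = 0.00225). In CC a peak within Smad1, a BMP signal transducer, fell (6.91 ± 0.457 to 3.86 ± 0.728 CPM, -0.88, adjusted p = 0.0233), and one 7883 bp from Egr3, an immediate early factor, rose (46.1 ± 0.861 to 60.2 ± 5.23 CPM, 0.39, adjusted p = 0.0309).

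The list of B cell targets of E proteins had peaks at 17 of 20 genes and 298 peaks. In CB 11 rose and 2 fell (3.69% and 0.671%, beside 0.779% and 3.85% of all peaks), and in CC 10 rose and 1 fell (3.36% and 0.336%, beside 0.578% and 2.17%), with medians of 0.15 and 0.17. Peaks at Pou2af1 and Ccnd3, known from earlier results of these data when the list was made, are counted in the 11 and the 10. The excess of risen peaks over the share of all peaks was thus partly fixed by the choice of genes. Besides these, a peak 622 bp from Irf8, a B and myeloid cell factor, rose in CC (29.6 ± 1.71 to 42.1 ± 8.79 CPM, 0.53, adjusted p = 0.0295). For CC against CB over all peaks, 3.35% rose and 2.08% fell in WT, and 4.78% rose and 2.44% fell in HOMO. Of the target list 20 peaks rose and 15 fell in WT (6.71% and 5.03%), and 26 rose and 19 fell in HOMO (8.72% and 6.38%). The partner list had 5 and 5 in WT (3.91% each), and 11 and 5 in HOMO (8.59% and 3.91%). The list upstream of Id genes had 7 and 3 in WT (5.65% and 2.42%), and 12 and 3 in HOMO (9.68% and 2.42%).

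Over the 12 libraries the genes whose summed accessibility was most like that of a member were taken by Pearson's r of log2 CPM, among 10096 to 10181 genes on other loci, as a description in which all points share library and depth. The highest values were Rab8b for Tcf3 (r = 0.966), H2ac8 for Tcf4 (0.973), Dlg1 for Tcf12 (0.923), Aldh3a2 for Id1 (0.957), Necap2 for Id2 (0.912) and Ptp4a3 for Id3 (0.969).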

How the data were processed

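The values are whole-number read counts in peaks, deposited by the authors for 12 libraries on mm10, with BWA, FastQC, deepTools and R 4.2.1 named without roles in the submitters' processing notes. The peak caller, the counting tool, pooling for peak calling, duplicate removal and the Tn5 offset are not stated in the sources used here. Groups and replicate numbers came from the labels. The 6 genes, the 3 lists and the markers were chosen with earlier results of these data known.

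TMM factors (0.954 to 1.05) scaled the counts. All 12 libraries entered 1 fit of 4 group means with edgeR 4.0.16 (R 4.3.3), tested two-sided by its robust quasi-likelihood F test. filterByExpr removed 0 peaks. Adjusted p-values (Benjamini-Hochberg) are edgeR's over all 68689 peaks or, for counts summed per gene, over 14265 genes, unless another tool is named. A log2 fold change has the SE implied by its F value, and log2 CPM a prior count of 2. At the depths given, the median SE at the 99 peaks was 0.18. A gene end is a midpoint within 1000 bp of an end of a RefSeq span (GRCm38.p6). Spans carried no strand, and strands were taken from the promoter windows. DESeq2 1.42.0 and limma 3.58.1 served as alternatives. The fit was tested on simulated data. Scripts ran on Python 3.11.15 with pandas 2.3.3, numpy 2.4.6 and matplotlib 3.10.9, and in R with the package data.table (1.17.8).

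Named peaks were all those called in any comparison, the strongest peak of each gene and its gene-end peaks. For the lists they were up to 3 called peaks per list and genotype comparison. Same-numbered libraries of a genotype correlated at 0.21 to 0.52 in their deviations from group means (6 pairs), and the 12 pairs of unlike number at -0.34 to 0.12. Numbers were therefore taken to pair CB and CC. Across genotypes the ranges were -0.01 to 0.40 and -0.30 to 0.18, and numbers were not taken as pairs.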

Additional observations from a re-analysis of the deposited data

How the results depend on the processing

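The number of called peaks among the 99 depended on the fit more than their direction did. For genotype in CB 2 were called, where 3178 of all 68689 peaks were. With limma voom it was 5 (6401 of all peaks) and with the library total as covariate 7 (8125 of all peaks). It was 1 within 10 kb, 0 with only the groups compared in the fit (2644) and 0 without both WT libraries numbered 2 (1660). Leaving out single libraries gave 0 to 1, where 341 to 3722 of all peaks were called. For genotype in CC 0 were called (1889 of all peaks). It was 2 with DESeq2 (3122), 3 with limma voom (4048) and 4 with the library total as covariate (5782). Without both HOMO libraries numbered 1 it was 4 (4442), and leaving out single libraries gave 0 to 2 (17 to 3413). For CC against CB in WT 11 were called (3732 of all peaks). The number fell to 1 without both WT libraries numbered 2 (527), and was 2 to 9 leaving out single libraries (1301 to 3565). In HOMO 8 were called (4957 of all peaks). The number was 17 with the library total as covariate (8993), 4 within 10 kb and 1 to 8 leaving out single libraries (2018 to 4677). The cause of these shifts was not tested, other than that 10 kb left 80 of the 99 peaks, and omissions left fewer libraries.

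With the replicate number as a block the counts were 13 and 6 for genotype in CB and CC, where 13.2% and 10.4% of all peaks were called. Numbers were not taken as pairs across genotypes, and the labels do not say what they share there. For CC against CB the counts were 23 and 26 in WT and HOMO (22.1% and 22.2% of all peaks). The difference of effects had 0 called under every alternative run. With the block the genotype difference of the Tcf3 sum in CC (adjusted p = 0.00414), of the Id3 sum (0.00642 in CB, 0.0302 in CC) and of the Id1 sum (0.0389 and 0.0298) passed, and so did the Tcf12 peak at 0.7 kb in CC (-0.43, 0.0324). No called peak turned its direction in the comparison that called it, and no gene sum did for genotype. Those peaks were chosen by their call, so a turn was unlikely from the start. Other named peaks, and the gene sums for CC against CB, were not followed through all the alternatives. No scaling moved the median of all peaks by over 0.1. Leaving out both HOMO libraries numbered 1 or both WT libraries numbered 2, and the block within genotype for the difference, were added after the data were seen. The shallowest library had a mean of 93.6 counts per peak, and peaks of a few CPM, such as those at Id2 -47.5 kb and Tcf4 72.1 kb, carry the largest standard errors among the called ones.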
